A study of Mus musculus with 4 samples.

Results

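The count table of mouse embryonic fibroblasts (MEFs) held 60 repeat rows of the class tRNA, out of 49382 named genes and repeats, of which 1445 were repeats. Members were all rows whose repeat class was tRNA, and they were grouped by the amino acid in the name of the row. They fell into 21 groups, that is the 20 standard amino acids and selenocysteine (SeC). In 57 rows the name also held 3 letters, and in all 57 these letters were a codon of the named amino acid, while in 0 rows did they give that amino acid when read as an anticodon. The row tRNA-Ala-GCY therefore stood for alanine tRNAs that read the codons GCT and GCC, since Y is either pyrimidine. The marks _, (m) and (e) in some names are not explained in the sources used here.

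Total RNA of wild-type MEFs, connective tissue cells grown from mouse embryos, was sequenced in 4 libraries. There were 2 untreated libraries and 2 libraries of cells given 50 µM genistein, a plant isoflavone, for 24 h. In other assays of the study, untreated cells received the solvent DMSO alone. The labels do not say whether the libraries of a group came from separate cultures, so p-values measure the spread between these libraries, which may be technical. The total counts per library were between 28591958 and 31464284, and tRNA rows took 3245 to 3940 of them. The fibroblast genes fitted the label, with Col1a1 at 68000 to 81300 and Vim at 54200 to 64900 normalised counts per library, although Thy1 had 0 counts. Of 8 markers of other cell types, 1 (Tubb3) passed the filter on low counts, and Epcam, Adgre1 and Myod1 were at 0.

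Transfer RNAs bring amino acids to the ribosome, where their anticodon pairs with a codon of the messenger RNA. Their nuclear genes are transcribed by RNA polymerase III (Pol III) from a promoter inside the gene, made of an A box and a B box, to which the factor TFIIIC binds and where it recruits TFIIIB. The transcript is then trimmed at both ends, spliced in a few families, given the terminal CCA, modified at many bases, exported and charged by a synthetase. Fibroblasts that grow and divide need many tRNAs, and Pol III is known to be raised by Myc and held down by Maf1 and the retinoblastoma proteins. Tandem and scattered copies of one tRNA gene are near-identical, and RepeatMasker, which marks repeats in the genome, gathers all copies of a kind, old degraded copies included, in 1 row.

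The RefSeq table of GRCm38.p6, which is not complete, named 408 nuclear tRNA genes. Set against GENCODE genes, 330 of them lay outside other genes, 62 in an intron and 16 over an exon. The GENCODE release used for this was later than the one the authors counted over. Chromosome 13 held 105, of which 104 lay between bases 21160785 and 23530419. The study's methods do not say whether reads over both an exon and a repeat were counted for the gene or for the repeat. A tRNA row may therefore lack reads of exonic copies.

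Counts of tRNA rows were low. Their share of all counts was 0.0106% (95% Wilson interval 0.0102% to 0.0109%) and 0.0121% (0.0117% to 0.0125%) in untreated 1 and 2, and 0.0125% (0.0121% to 0.0129%) and 0.012% (0.0116% to 0.0124%) in genistein 1 and 2. These intervals cover counting error only. The reads were 150 bases from each end of a fragment, longer than a mature tRNA, and a count in a tRNA row cannot be told apart as mature tRNA or as a longer transcript that runs through a copy. Counts of rows were not divided by length or by the number of copies, so levels of different rows are read counts and not amounts of tRNA. Less RNA per cell and fewer cells with the RNA likewise cannot be told apart in these bulk samples.

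The first question was how the tRNA rows changed with genistein. After removal of entries with low counts, 40 of the 60 rows were kept, with a median normalised count of 41.5 per row. In edgeR's quasi-likelihood test, 13 of the 40 rows were lower with genistein at an adjusted p under 0.05 and 2 were higher. Over all 17358 kept entries, 36% were lower and 36.2% were higher by the same rule, so the share of lower tRNA rows was near that of all entries. Among the 1118 kept repeats only 2.86% were lower and 76.3% were higher. The median log2 fold change of the 40 rows was -0.34, with 32 rows below 0 and 8 above, against 0.70 for the 1078 other kept repeats and 0.015 for all entries. It ranged with the untreated library that was left out, from -0.52 without untreated 1 to -0.17 without untreated 2. The 2 higher rows were both alanine rows.

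**Figure D1:**
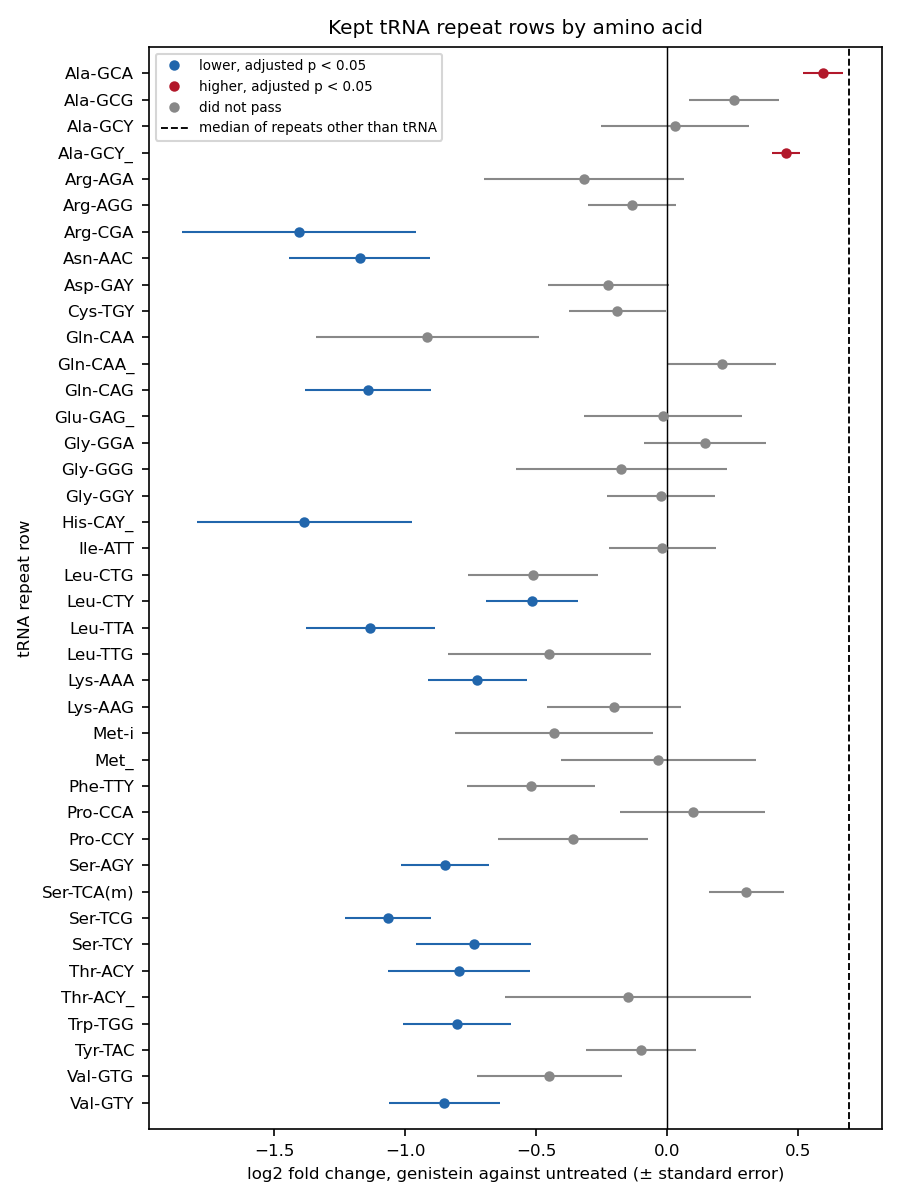
Log2 fold change (genistein against untreated, x axis) of the 40 kept tRNA repeat rows, ordered by amino acid, with bars of 1 standard error from edgeR and 2 libraries per group. The 13 rows that passed as lower (blue) spread over 10 amino acids, the 2 that passed as higher (red) are alanine rows, which are at -0.10 and -0.24 when repeats are fitted alone, and all rows lie left of the dashed line, the median of the other repeats.

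Groups did not overlap, with both genistein libraries below both untreated ones, in 17 of the 40 rows, and in the opposite direction in 4. Of all kept entries, 42% did not overlap in the lower direction and 43.4% in the higher direction. DESeq2 called 7 of the 13 lower rows and both higher rows, where it called 30.7% of all entries lower and 27.2% higher. The 6 rows whose call it did not share were tRNA-Arg-CGA (adjusted p = 0.135), tRNA-His-CAY_ (0.099), tRNA-Leu-CTY (0.15), tRNA-Lys-AAA (0.064), tRNA-Thr-ACY (0.139) and tRNA-Trp-TGG (0.0521). No tRNA row passed all thresholds of the study, which ask for an adjusted p under 0.05, a mean of more than 100 normalised counts and a log2 fold change beyond 1 in either direction. This count was 0 by edgeR and by DESeq2, and also 0 at an unadjusted p under 0.05, while 7.82% of all entries passed. Of the tRNA rows, tRNA-Ala-GCA and tRNA-Ala-GCY_ alone had a mean above 100. With a mean over 10 in place of 100, 5 rows passed. The 7.82% is for a mean over 100 and is no base for this count.

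The alanine rows held the largest part of the tRNA counts and went the opposite way to most other rows. Together the 4 rows had 1570 and 1620 normalised counts when untreated (1590 ± 34.1, SD, n = 2) and 2300 and 2100 with genistein (2200 ± 141, SD, n = 2). Alanine rows thus made up 45.9% of the tRNA counts of untreated cells and 61.4% of those of treated cells. The row tRNA-Ala-GCY_ alone had 1160 and 1170 normalised counts untreated and 1680 and 1520 with genistein. Both treated libraries lay above both untreated ones, by 0.46 ± 0.053 on the log2 scale (standard error, adjusted p = 9.67e-07, edgeR). The row tRNA-Ala-GCA, for tRNAs that read GCA, had 320 and 329 counts untreated and 505 and 475 treated. This was an increase of 0.60 ± 0.076 on the log2 scale (standard error, adjusted p = 2.71e-06, edgeR), again with no overlap. These increases were smaller than the median of the other repeats, and when repeats were fitted alone both values turned negative, to -0.24 (adjusted p = 0.00374, edgeR) for tRNA-Ala-GCY_ and to -0.10 (adjusted p = 0.36) for tRNA-Ala-GCA.

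The other 2 alanine rows had few counts. The row tRNA-Ala-GCG had 60.9 and 60.3 normalised counts untreated and 76 and 68.8 treated, and did not pass (log2 fold change 0.26, adjusted p = 0.188, edgeR). The row tRNA-Ala-GCY, without the trailing mark, had 25 and 51.9 untreated and 41.3 and 36.4 treated, so that its groups overlapped. RefSeq named 33 alanine tRNA genes, against 56 for cysteine, whose row tRNA-Cys-TGY had only 65.6 to 103 counts per library. The order of the counts thus differed from that of the named genes for this pair.

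Alanine tRNA has relatives among the mouse repeats. The short interspersed ID elements are thought to have spread from Bc1, a neuronal RNA made by Pol III, whose 5′ part descends from an alanine tRNA gene. The 4 kept rows of the ID family rose by 0.48 to 0.58 on the log2 scale and the row BC1_Mm by 0.38, from 2300 and 2370 normalised counts to 3080 and 3010 (adjusted p = 9.92e-08, edgeR). These rows were chosen after their values were seen. The ID row ID4_ had 7100 and 7570 counts untreated and 10900 and 11000 treated. Whether reads of ID copies were counted in alanine rows was not tested.

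Without alanine, the other 56 rows together had 1670 and 2080 normalised counts when untreated (1880 ± 286, SD, n = 2) and 1390 and 1380 with genistein (1390 ± 7.67, SD, n = 2). Both treated libraries were below both untreated ones, and the log2 ratio of the means was -0.44. The sum over all 60 rows was 3240 and 3690 untreated and 3690 and 3480 treated, so it overlapped, with a log2 ratio of 0.05. The split by alanine was made after the values were seen and carries no test. The untreated libraries differed more from each other than the treated ones did in the sum without alanine.

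**Figure D2:**
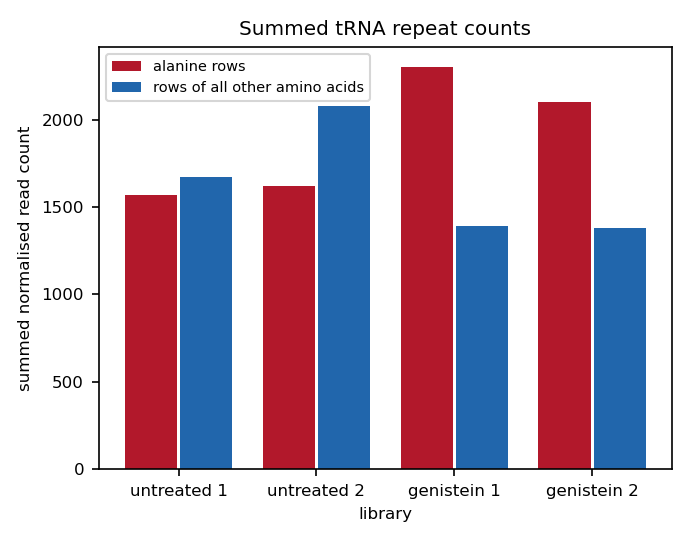
Summed normalised read counts (y axis, from 0) of the 4 alanine rows (red) and of the 56 rows of all other amino acids (blue) in each of the 4 libraries. Alanine rows sum to 1570 and 1620 untreated and to 2300 and 2100 with genistein, an increase that turns to -0.23 on the log2 scale with scaling factors from repeats alone, and the other rows to 1670 and 2080 untreated and to 1390 and 1380 with genistein.

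Serine rows held the next largest share, 11.6% of the tRNA counts of untreated cells and 7.68% of those of treated cells. Serine tRNAs fall into 2 codon boxes, TCN and AGY, and 3 of the 4 kept rows passed as lower. The row tRNA-Ser-TCG, of tRNAs that read TCG, had 103 and 122 normalised counts untreated and 54.4 and 52.6 treated. It fell by 1.07 ± 0.16 on the log2 scale (standard error, adjusted p = 2.29e-05, edgeR), the smallest adjusted p among the lower tRNA rows. The row tRNA-Ser-AGY had 110 and 116 untreated and 72.2 and 52.6 treated, with a log2 fold change of -0.85 (adjusted p = 0.000273). The row tRNA-Ser-TCY had 66.9 and 111 untreated and 53.4 and 52.6 treated. Its log2 fold change of -0.74 (adjusted p = 0.00655, edgeR) dropped to -0.33 (adjusted p = 0.178) without untreated 2, the higher of its untreated libraries.

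One serine row lay above 0. The row tRNA-Ser-TCA(m) had 87.9 and 84.7 counts untreated and 109 and 104 treated, and these did not overlap. Its log2 fold change of 0.30 did not pass (adjusted p = 0.0679, edgeR), although it passed when scaling factors were taken from genes alone (0.35, adjusted p = 0.0393) or from library totals (0.37, adjusted p = 0.027). When repeats were fitted alone it was -0.39.

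Leucine and glutamine rows followed in counts. Leucine is read by tRNAs of the CTN and TTR boxes, and its 7 rows summed to 178 and 214 normalised counts untreated and 126 and 122 treated, with no overlap. The row tRNA-Leu-TTA fell by 1.13 on the log2 scale (adjusted p = 0.000639, edgeR), from 47 and 60.3 to 28.1 and 20.2. The row tRNA-Leu-CTY fell by 0.52 (adjusted p = 0.0162), from 72.9 and 84.7 to 51.6 and 58.7. It lost this call without untreated 2 (adjusted p = 0.0903) or without genistein 1 (adjusted p = 0.132). The leucine rows for CTG (-0.51) and TTG (-0.45) did not pass.

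The glutamine row tRNA-Gln-CAG had 77.9 and 143 counts untreated and 46.9 and 52.6 treated. It fell by 1.14 ± 0.24 on the log2 scale (standard error, adjusted p = 0.000496, edgeR), and by 0.65 (adjusted p = 0.0104) without untreated 2. Its SD was 46 over the untreated libraries and 4.07 over the treated ones, which still did not overlap. The row tRNA-Gln-CAA_ was at 0.21 and overlapped, and tRNA-Gln-CAA, with 12 and 15.9 counts untreated and 6.56 and 8.1 treated, did not pass (adjusted p = 0.0641).

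Of the rows with the 3 largest decreases, tRNA-Arg-CGA and tRNA-His-CAY_ had few counts (means of 9.89 and 12.4). The third, tRNA-Asn-AAC, had a mean of 39.6, near the median of 41.5 of the kept tRNA rows. The row tRNA-Arg-CGA had 13 and 15.9 normalised counts untreated and 5.63 and 5.06 treated (log2 fold change -1.41 ± 0.45, standard error, adjusted p = 0.0102, edgeR). The row tRNA-His-CAY_ had 17 and 19.1 untreated and 8.44 and 5.06 treated (-1.39 ± 0.41, standard error, adjusted p = 0.00642). The row tRNA-Asn-AAC had 49.9 and 60.3 untreated and 31.9 and 16.2 treated (-1.17 ± 0.27, standard error, adjusted p = 0.00101). In all 3 rows both treated libraries lay below both untreated ones. Without untreated 2 the arginine row no longer passed (adjusted p = 0.0617), and without genistein 2 the histidine row did not (adjusted p = 0.0619). The largest arginine row by counts, tRNA-Arg-AGG, was at -0.13 and overlapped.

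Rows of 4 further amino acids passed as lower. Tryptophan has the single codon TGG, and tRNA-Trp-TGG had 58.9 and 63.5 normalised counts untreated and 38.4 and 31.4 treated (log2 fold change -0.80, adjusted p = 0.00236, edgeR). The lysine row tRNA-Lys-AAA had 66.9 and 66.7 untreated and 39.4 and 41.5 treated (-0.72, adjusted p = 0.00273), while tRNA-Lys-AAG, at -0.20, overlapped. The valine row tRNA-Val-GTY had 64.9 and 97.4 untreated and 46.9 and 42.5 treated (-0.85, adjusted p = 0.00197), and -0.54 without untreated 2. Over the untreated libraries the SD was 0.164 in the lysine row and 23 in the valine row. The threonine row tRNA-Thr-ACY had 32 and 44.5 untreated and 24.4 and 19.2 treated (-0.79, adjusted p = 0.0158). It lost the call without untreated 2 (adjusted p = 0.146) or without genistein 2 (adjusted p = 0.108).

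**Figure D3:**
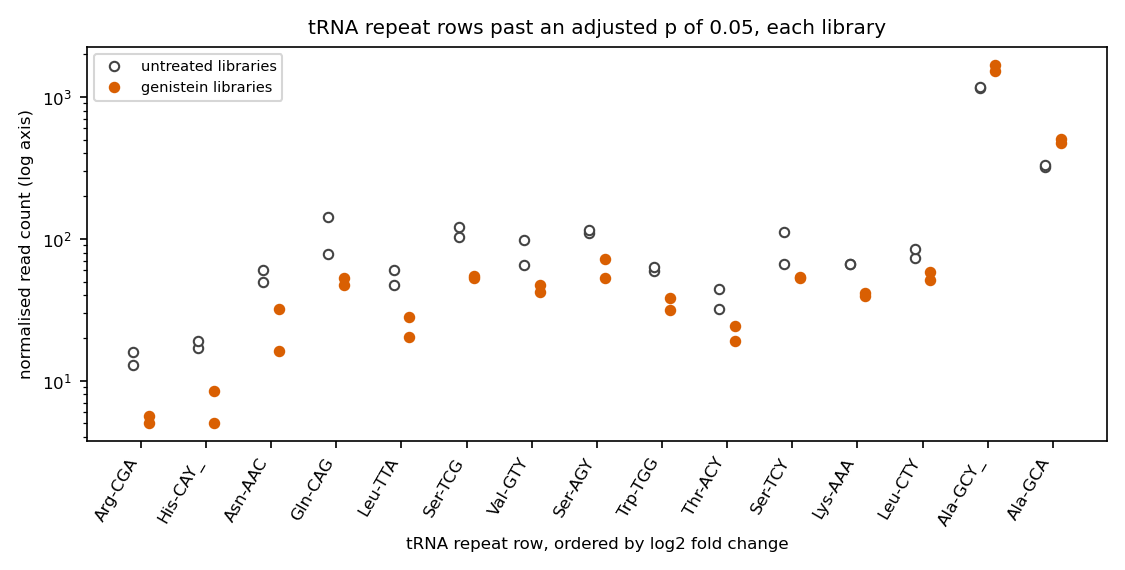
Normalised read count (y axis, log axis) of the 15 tRNA repeat rows past an adjusted p of 0.05, ordered by log2 fold change, with 1 point per library (open, untreated; filled, genistein). The groups do not overlap in any of the 15 rows, and the 2 alanine rows at the right have the highest counts and the opposite direction to the other 13, which they keep except when repeats are fitted alone.

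For the remaining amino acids no row passed in edgeR. Groups overlapped in the sums of aspartate, cysteine, glycine, isoleucine, methionine, proline and tyrosine. The row tRNA-Gly-GGY had 52.9 and 47.6 counts untreated and 56.3 and 42.5 treated, and tRNA-Ile-ATT had 43 and 51.9 untreated and 44.1 and 49.6 treated. The log2 fold changes of the rows with the most counts of the other such amino acids were -0.22 for tRNA-Asp-GAY, -0.19 for tRNA-Cys-TGY, 0.099 for tRNA-Pro-CCA, -0.098 for tRNA-Tyr-TAC, -0.016 for tRNA-Glu-GAG_ and -0.032 for tRNA-Met_. Their standard errors ran from 0.19 for tRNA-Cys-TGY to 0.37 for tRNA-Met_. What size of change could be detected at these counts was not tested. The cysteine row passed as lower without genistein 2 (-0.54, adjusted p = 0.0326) and was at 0.11 without genistein 1, and the aspartate row ranged from -0.50 without genistein 1 to -0.004 without genistein 2. The initiator row tRNA-Met-i, of the tRNA that starts every protein, had 13 and 20.1 untreated and 14.1 and 10.1 treated, which overlapped. The phenylalanine row tRNA-Phe-TTY was lower in both treated libraries (38.4 and 32.4, against 40 and 62.5) but did not pass (log2 fold change -0.52, adjusted p = 0.067). It passed without untreated 1 (-0.81, adjusted p = 0.00732) and was at -0.17 without untreated 2, and it also passed with no filter on low counts (adjusted p = 0.0302) or with repeats alone (adjusted p = 0.00491). Glutamate rows summed to 25 and 26.5 untreated and 31.9 and 30.4 treated, the only amino acid beside alanine whose sum was higher in both treated libraries, at 0.28 on the log2 scale and at -0.42 with factors from repeats alone. Its kept row, tRNA-Glu-GAG_, had means of 22.7 untreated and 22.2 treated, and the higher sum came from tRNA-Glu-GAG, a row below the filter with 3 and 1.06 counts untreated and 5.63 and 12.1 treated.

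Grouped by the last letter of the codon and without alanine, 3 of 9 kept rows for codons ending in A passed as lower, 3 of 10 for G and 6 of 12 for Y, beside 36% of all entries. Their median log2 fold changes were -0.32, -0.45 and -0.52. The remaining lower row, tRNA-Asn-AAC, has a codon ending in C. Also outside these groups were tRNA-Tyr-TAC (-0.098) and tRNA-Ile-ATT (-0.017), whose codons end in C and T, and which did not pass. The methionine rows, whose names hold no codon, were outside them too. This grouping carries no test.

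Of the 20 rows that were not kept, 3 had 0 counts in all 4 libraries, namely tRNA-Arg-CGA_, tRNA-Ser-TCA_ and tRNA-Tyr-TAT. A count of 0 in a library allows up to 3 counts. The other 17 had 0 to 14 counts per library. The selenocysteine row tRNA-SeC(e)-TGA, whose tRNA reads a stop codon in selenoprotein messages, had 10 and 14 raw counts untreated and 10 and 9 treated. Changes in these rows were not tested.

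The second question was how the tRNA rows stood to the other repeats within each library, which needs no scaling between libraries. Per 10000 counts of other repeats, tRNA rows had 8.82 and 9.65 counts without treatment and 8.56 and 8.88 after it. The mean log2 ratio differed by -0.082 and the groups overlapped (two-sided exact permutation p = 0.667). Without alanine the values were 4.56 and 5.43 untreated and 3.23 and 3.52 treated, a difference of -0.56 with no overlap, given with no test since the split was made after the values were seen. With 2 libraries against 2 the test cannot give a p below 0.333. The base of this ratio rested on 1 row, since 7SLRNA took 39.3% and 40.3% of the other repeat counts untreated and 17.1% and 18.2% treated. Without 7SLRNA in the base, a choice made after seeing the data, all tRNA rows had 14.5 and 16.2 counts per 10000 untreated and 10.3 and 10.9 treated, a difference of -0.53 with no overlap. A fit of repeats alone does scale between libraries, and it sets the median of all repeats near 0 (-0.009) by construction. In the main fit every kept tRNA row already lay below the median of all repeats (at most 0.596, against 0.685). That all 40 lay below 0 when repeats were fitted alone, with a median of -1.03, is thus no separate result. By edgeR, 27 passed as lower and 0 as higher. In that fit 14.8% of all repeats were lower and 8.41% higher. In that fit too the alanine rows with the most counts, at -0.10 and -0.24, lay nearer to 0 than the median row.

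**Figure D4:**
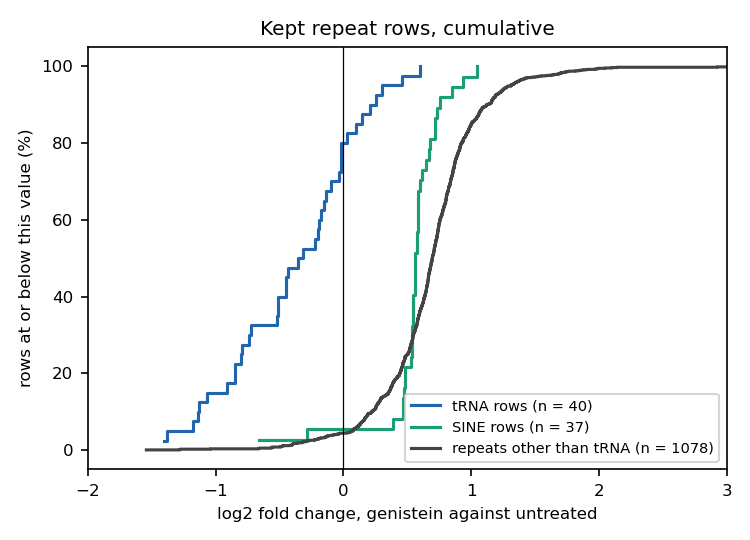
Cumulative share of rows (y axis, %) at or below a log2 fold change (x axis, drawn from -2 to 3) for the 40 kept tRNA rows, the 37 kept SINE rows and the 1078 kept repeats other than tRNA. The tRNA curve lies to the left of both others, with medians of -0.34, 0.56 and 0.70.

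Repeat rows named after other Pol III products moved in both directions. The row 7SLRNA, of the RNA of the signal recognition particle, fell by 1.04 (log2 fold change, adjusted p = 1.03e-14, edgeR). The row 7SK, an RNA that holds back transcription elongation, fell by 0.66, from 114000 and 116000 normalised counts to 73600 and 72200. The rows of the small ribosomal 5S RNA and the spliceosomal U6 RNA, also made by Pol III, rose by 0.53 and 0.51. Both had few counts, with 98.9 and 115 untreated and 156 and 153 treated for 5S. For U6 they were 140 and 139 untreated and 213 and 183 treated. The libraries were depleted of ribosomal RNA, and repeat rows gather degraded copies too. Counts of these rows, and of the SINE rows below, are therefore not amounts of a Pol III product. SINEs are short interspersed elements, of which the B2 and ID families descend from tRNAs. Of the 5 B2 rows, B2_Mm1a (-0.67) and B2_Mm1t (-0.28) fell and B2_Mm2 (0.39), B3 (0.56) and B3A (0.58) rose, with a median of 0.39. These single rows were named after their values were seen. Over the 37 kept SINE rows the median was 0.56, with 35 higher and 2 lower past the adjusted p. Among all kept repeats 76.3% were higher and 2.86% lower, and among all entries 36.2% and 36%. The 13 kept rows of small structural RNAs, which also hold products of other polymerases, had a median of 0.38, with 6 higher and 2 lower, the latter being 7SLRNA and 7SK. No difference between these classes and the tRNA rows was tested.

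The third question was how the genes that make and use tRNAs changed. The lists held 150 genes and 139 were tested, of which 108 were lower, 9 were higher and 22 did not pass an adjusted p of 0.05 in edgeR. For all entries 36% were lower and 36.2% were higher. Of the 18 subunits of Pol III, 16 were lower, 1 was higher and 1 did not pass, and their median was -0.54. The subunit Polr3g fell by 1.47 on the log2 scale, from 610 and 603 normalised counts to 212 and 227 (adjusted p = 5.76e-11), while its paralogue Polr3gl, which can take its place in the enzyme, rose by 0.48, from 123 and 130 to 188 and 165 (adjusted p = 0.00242). Polr2h, a subunit that Pol III shares with the other polymerases, fell by 1.26 (adjusted p = 1e-10), and the shared subunit Polr2f fell by 0.81 (adjusted p = 2.07e-10).

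Of the 9 genes of TFIIIB and TFIIIC, 7 were lower, 1 was higher and 1 did not pass, with a median of -0.30. Gtf3c6 fell by 0.95 and Gtf3c5 by 0.58, while Gtf3c1, the largest subunit of TFIIIC, rose by 0.62, from 4550 and 4560 to 7030 and 7000 (adjusted p = 1.88e-11, edgeR). Brf1, the TFIIIB subunit used at tRNA genes, was at -0.15 (adjusted p = 0.0233). Among 6 regulators, 3 were lower, 2 were higher and 1 did not pass (median -0.17). For both lists the shares of all entries were 36% lower and 36.2% higher. The activator Myc fell by 1.12, from 2850 and 2660 to 1220 and 1320 (adjusted p = 4.77e-12), and the repressor Rb1 rose by 2.05, from 240 and 281 to 1090 and 1050 (adjusted p = 5.35e-13). The related Rbl2 rose by 0.84, while Rbl1, of the same family, fell by 0.35 (adjusted p = 2.84e-06, edgeR). The third lower regulator, Trp53, fell by 0.30 (adjusted p = 2.14e-05, edgeR). Maf1, the main repressor of Pol III, had 1100 and 1070 untreated and 1070 and 1040 treated (log2 fold change -0.041, adjusted p = 0.488).

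Genes of end processing and splicing had a median of -0.71, with 19 of 23 lower, 1 higher (Zbtb8os, a partner of the tRNA ligase) and 3 that did not pass. Beside 7.82% of all entries, in either direction, 4 of the 23 genes passed all thresholds of the study. They were the RNase P subunits Rpp25 (log2 fold change -1.82), Rpp40 (-1.16) and Rpp38 (-1.08), and Elac2 (-1.08), which cuts the 3′ end. Both export genes were lower, Xpot (-0.80) and Xpo5 (-0.80). Of 44 tested modification genes 39 were lower, 0 higher and 5 did not pass, with a median of -0.72. Beside these lists, 36% of all entries were lower and 36.2% higher. The 11 that passed all thresholds were Trmt61a (-1.74), Wdr4 (-1.43), Mettl1 (-1.41), Nsun2 (-1.35), Qtrt1 (-1.28), Qtrt2 (-1.24), Pus7 (-1.20), Pus3 (-1.17), Elp6 (-1.17), Pus1 (-1.05) and Ctu2 (-1.03). Wdr4 and Mettl1 form the enzyme that methylates a guanine of the variable loop, and Nsun2 methylates cytosines.

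Of 4 genes of cleavage and decay, 1 was lower (Xrn2, -0.47), 2 were higher and 1 did not pass. Ang, the ribonuclease that cuts tRNAs at the anticodon under stress, rose by 1.88, from 51.9 and 60.3 normalised counts to 203 and 210 (adjusted p = 4.45e-09, edgeR), and Xrn1 by 0.32. Of 20 cytosolic aminoacyl-tRNA synthetases 18 were lower, 1 was higher (Qars, 0.12) and 1 did not pass, with a median of -0.49. The valine enzyme Vars was at -1.18 and the phenylalanine subunits Farsa and Farsb at -1.15 and -1.05. The alanine enzyme Aars was at -0.13 (adjusted p = 0.00893) and the serine enzyme Sars at -0.12 (adjusted p = 0.00482). The 22 mitochondrial tRNA genes are transcribed from the mitochondrial genome by another polymerase, and 13 were tested. Of these, 3 were lower (mt-Ti, -0.58, mt-Tp, -0.58 and mt-Tl1, -0.23), 1 was higher (mt-Tt, 0.57) and 9 did not pass, with a median of -0.26. Over all entries 36% were lower and 36.2% higher.

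**Figure D5:**
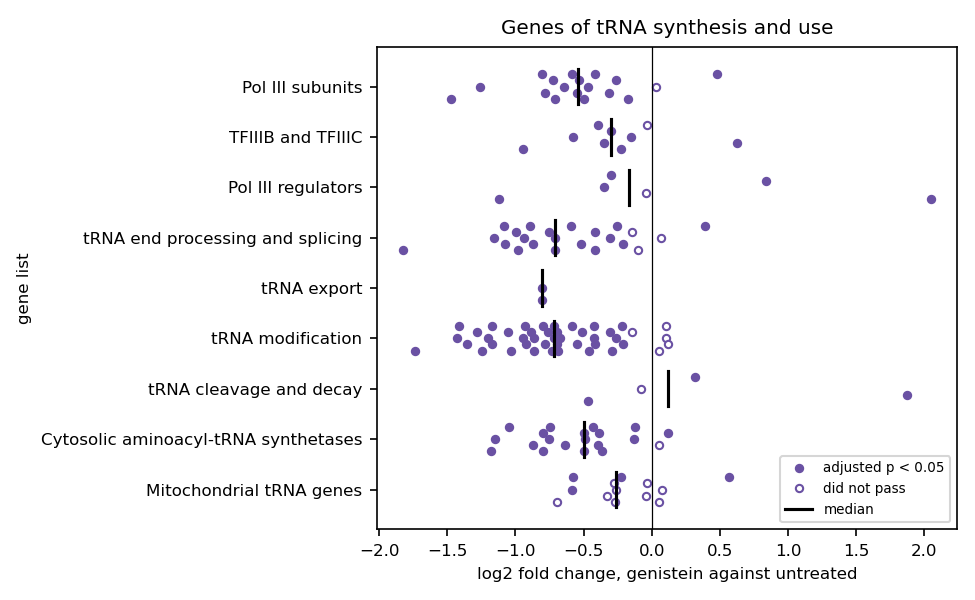
Log2 fold change (genistein against untreated, x axis) of each tested gene of the 9 lists, with filled points for an adjusted p under 0.05 in edgeR, open points for genes that did not pass and a bar at the median of the list. Most points lie left of 0, with medians from -0.80 for the 2 export genes to 0.12 for the 4 genes of cleavage and decay, and the values furthest right are Rb1 at 2.05 and Ang at 1.88.

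All genes together had a median log2 fold change of -0.033. The lists and the tRNA rows were measured in the same 4 libraries, and whether the genes' change bears on the tRNA rows was not tested.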

How the data were processed

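Total RNA of 4 MEF libraries was depleted of ribosomal RNA and sequenced as paired ends with a stranded kit. The authors trimmed reads with Trim Galore 0.4.0, aligned them to mm10 with STAR 2.5.2, keeping reads with up to 100 alignments, and counted them with TEtranscripts 1.5.1 over GENCODE genes and RepeatMasker repeats. The table they deposited holds raw counts, whole numbers for each gene and repeat subfamily. The strand option of the counter is not given in the sources used here. A tRNA row sums all copies, and reads that fit many copies are shared among them, so rows with near-identical copies are uncertain and have no single coordinate. How reads over both a gene exon and a repeat were assigned is not stated in the study's methods.

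Samples were grouped by the labels. The 1 entry with no name (0.00208% to 0.00314% of counts) was left out. Genes and repeats were fitted together with edgeR 4.0.16 in R 4.3.3, with filterByExpr (17358 entries kept), TMM scaling, the quasi-likelihood test and Benjamini-Hochberg adjustment over all kept entries. Normalised counts are counts per effective library size, brought to the mean effective size of the libraries. The standard error is the size of the log2 fold change divided by the square root of F. The model was run on simulated counts with 200 changed entries, far fewer than were called in these data. That run does not check the scaling where so many entries change. Counts of replicates differed beyond sampling noise (chi-square over its degrees of freedom of 5.7 untreated and 13.1 treated). Sums by amino acid used all rows and carry no test. Alternatives covered scaling, filtering, DESeq2 1.42.0, leaving out each library and a replicate block.

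The text names every kept tRNA row past an adjusted p of 0.05, those with the most extreme change among rows with a mean over 100, the row with the most counts of each amino acid, and list genes past all thresholds or among the 3 largest changes of their list that passed the adjusted p, with Myc, Maf1 and Brf1. Rows and genes named beyond this were chosen after their values were seen. The members and lists were chosen with earlier results of these data known. Gene symbols matched 47224 identifiers, and 2 of 46 modification genes were not found under their symbols. Positions of tRNA genes are from RefSeq and GENCODE on GRCm38. A gene of the processing list and sequences of tRNA genes are not reported here, and the list was counted without that gene.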

Additional observations from a re-analysis of the deposited data

Results flagged for a closer look

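The entry of the table with neither gene nor repeat name, which stayed out of all comparisons, had a mean normalised count of 881 with genistein (926 and 837), above the untreated libraries at 639 and 681. What its reads are is not given in the sources used here, and the difference was not tested.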

How the results depend on the processing

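Depth limited the tRNA rows, which had a median of 41.5 normalised counts. The replicate numbers did not pair the samples (correlation of deviations -0.0302 between same-numbered libraries), and the replicate block left 13 lower and 2 higher tRNA rows with a median of -0.34, and 108 lower and 9 higher pathway genes. The result moved most when repeats were fitted alone, which sets the median of all repeats near 0 (-0.009) by construction. Then 27 tRNA rows were lower and 0 higher, with a median of -1.03, and tRNA-Ala-GCA (-0.10), tRNA-Ala-GCY_ (-0.24), tRNA-Pro-CCA (-0.60) and tRNA-Ser-TCA(m) (-0.39) turned negative. With factors from repeats alone the summed log2 ratio was -0.64, alanine was at -0.23 and glutamate at -0.42. With factors from genes alone, rows near 0 turned positive, at 0.028 for tRNA-Glu-GAG_, 0.022 for tRNA-Gly-GGY, 0.026 for tRNA-Ile-ATT and 0.011 for tRNA-Met_, and with library totals at 0.053, 0.047, 0.052 and 0.037. DESeq2 called 7 lower rows, all among the 13, and the same number of higher rows, 2, and the cause of the 6 lost calls was not tested. With a mean count over 10 in place of 100, 5 rows passed all thresholds, given without the share of all entries at that cut-off. The summed log2 ratio was -0.21 without the row with the most counts and -0.44 without alanine, an alternative chosen after seeing the data. The log2 ratio to other repeats was -0.34 without that row, -0.44 against SINE rows, -0.53 with 7SLRNA left out of the base and -0.56 without alanine, of which the last 2 were chosen after seeing the data.

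Leaving out 1 library gave 9 to 14 lower rows, 2 higher rows, a median from -0.52 to -0.17, a summed ratio from -0.041 to 0.15 and a ratio to other repeats from -0.15 to -0.017. The lowest and highest values of rows near 0 were -0.30 and 0.049 for tRNA-Arg-AGG, -0.54 and 0.11 for tRNA-Cys-TGY, -0.50 and -0.004 for tRNA-Asp-GAY, -0.31 and 0.21 for tRNA-Glu-GAG_, -0.24 and 0.16 for tRNA-Gly-GGY, -0.15 and 0.12 for tRNA-Ile-ATT, -0.41 and 0.45 for tRNA-Met_, -0.23 and 0.42 for tRNA-Pro-CCA and -0.41 and 0.28 for tRNA-Tyr-TAC. Where 1 library of a group was left, it was assumed to vary like the other group.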
